A study of Mus musculus with 6 samples.

Results

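The 35 genes described here encode the machinery that brings secretory proteins into the endoplasmic reticulum (ER), folds them there and removes those that fail to fold. They were listed by name as genes of a known pathway, with earlier results of these data known, and were looked up by mouse symbol among the 55401 genes of the count table, where all 35 were found. RNA-seq counts came from C3H10T1/2 cells, an established mouse mesenchymal line that can be turned toward bone, fat or muscle. The 6 libraries were shControl, shNFIB and shMLL1 cells, each at day 0 and at day 7, with 1 library per condition.

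shControl cells express a control hairpin, shNFIB cells a hairpin against Nfib, a DNA-binding transcription factor, and shMLL1 cells a hairpin against Mll1 (Kmt2a), a histone H3 lysine methyltransferase. All 3 lines derive from C3H10T1/2, and the day 0 cells were confluent and untreated. Day 7 cells had received dexamethasone at 0.1 μM, ascorbic acid 2-phosphate at 100 μg/ml and β-glycerophosphate at 20 mM, so time in culture and the osteogenic stimuli cannot be told apart. Each knockdown is represented by 1 cell line, and a property of that line cannot be told apart from the loss of its target.

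Most proteins bound for secretion enter the ER through the Sec61 channel, meet the chaperone BiP (Hspa5) and the lectins calreticulin and calnexin, and receive their disulfide bonds from protein disulfide isomerases that are reoxidised by Ero1. Unfolded protein is sensed by the transmembrane proteins IRE1 (Ern1), PERK (Eif2ak3) and ATF6. ATF6 and XBP1 then raise the transcription of chaperone and ER-associated degradation genes, while PERK slows translation and favours ATF4 and its targets. Bone-forming cells secrete large amounts of collagen, and ascorbic acid is a cofactor of collagen hydroxylation in the same compartment.

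The best known DNA element of these genes is the ER stress response element, ERSE, which consists of CCAAT and CCACG with 9 bases between them and is the site through which NF-Y and ATF6 or XBP1 act. The promoters are shown because they are the feature that sets several of these genes apart from others by sequence. RefSeq promoters on GRCm38.p6, from 250 bases before to 50 bases after the start, were matched by symbol for 28 of the 35 genes. The 7 genes Hyou1, Manf, Atf6, Derl1, Sec61a1, Ssr2 and Rcn1 had no entry. ERSE was found on either strand in 9 of the 28 genes, at 10 sites, against 0.119% of all 32851 promoters. The sequence upstream of Hspa5 at chr2:34771840-34772089 on the plus strand and that of Hsp90b1 at chr10:86705445-86705694 on the minus strand are given 5′ to 3′ in the direction of the gene, with ERSE in capitals.
Hspa5: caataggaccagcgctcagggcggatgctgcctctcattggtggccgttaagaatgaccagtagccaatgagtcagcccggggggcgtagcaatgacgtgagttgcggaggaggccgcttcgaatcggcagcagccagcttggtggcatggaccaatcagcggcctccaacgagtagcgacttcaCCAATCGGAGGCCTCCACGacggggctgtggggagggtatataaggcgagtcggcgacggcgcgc
Hsp90b1: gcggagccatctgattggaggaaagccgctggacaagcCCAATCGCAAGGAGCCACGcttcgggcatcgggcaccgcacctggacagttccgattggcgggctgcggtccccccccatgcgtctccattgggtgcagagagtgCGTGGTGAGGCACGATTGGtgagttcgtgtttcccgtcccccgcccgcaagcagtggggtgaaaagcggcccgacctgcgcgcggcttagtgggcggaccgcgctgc

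The capitals mark 1 site in Hspa5 and 2 in Hsp90b1, the second of which lies on the opposite strand and so reads as the reverse complement. The other 7 promoters with ERSE are shown by the site alone with 8 bases on either side, so that the variable middle of the element can be compared. They lie at chr8:84847067-84847101 (Calr, minus strand), chr11:50325792-50325826 (Canx, minus), chr15:88819512-88819546 (Creld2, plus), chr10:75893234-75893268 (Derl3, plus), chr14:118937819-118937853 (Dnajc3, plus), chr12:17266483-17266517 (Pdia6, plus) and chr19:6046524-6046558 (Syvn1, plus).
Calr: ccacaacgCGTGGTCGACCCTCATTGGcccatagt
Canx: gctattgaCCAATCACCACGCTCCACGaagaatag
Creld2: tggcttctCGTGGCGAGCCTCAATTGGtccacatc
Derl3: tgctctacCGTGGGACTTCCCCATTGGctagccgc
Dnajc3: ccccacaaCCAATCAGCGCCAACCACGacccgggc
Pdia6: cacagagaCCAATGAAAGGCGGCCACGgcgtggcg
Syvn1: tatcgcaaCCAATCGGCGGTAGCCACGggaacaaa

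A shorter relative, ERSE-II, which is ATTGG and CCACG with 1 base between them, was found in 2 genes, Herpud1 and Dnajb11, against 0.0365% of all promoters. The Herpud1 site at chr8:94386369-94386395 on the plus strand is shown with the same flanks.
Herpud1: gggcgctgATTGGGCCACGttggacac

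TGACGTGG, an XBP1 element, was in none of these 28 genes and in 0.676% of all promoters. CCAAT and CCACG alone were common, in 37.4% and 32.8% of all promoters, and every ERSE match also counts as a match to both. A match describes letters in the window and does not show that a factor binds there.

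Libraries held between 21608680 (shMLL1, day 7) and 34774066 (shNFIB, day 0) counts in genes. Levels are in CPM, the usual per-library scaling of counts, after adjustment by TMM factors. In shNFIB, Nfib stood at 35.3 CPM on day 0 and 8.15 CPM on day 7, where shControl had 116 and 83.5 CPM. In shMLL1, Kmt2a stood at 30.9 and 34.8 CPM on these days, where shControl had 74.7 and 66.3 CPM. Both hairpin targets were thus lower in the line labelled for them. Nfib was also lower than in shControl in shMLL1, at 65.5 CPM on day 0 and 72.7 CPM on day 7. Kmt2a was at 86.5 and 94.0 CPM in shNFIB on these days, above shControl. The 10 mesenchymal markers summed to between 8229 and 17103 CPM at day 0 and between 6701 and 8889 CPM at day 7. The leukocyte markers summed to 7.58 CPM at most, with 4 of 5 at or under 3 counts in every library, and the endothelial markers to 0.902 CPM at most, with 2 of 3 there. The epithelial markers summed to between 6.11 and 9.05 CPM at day 0 and between 0.203 and 1.115 CPM at day 7, nearly all of it Cdh1, while Epcam was at 0 throughout.

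Taken as one pool, the 35 genes drew 0.969% of all counts in shControl at day 0 (95% Wilson interval 0.966 to 0.973) and 0.623% at day 7 (0.620 to 0.626). In shNFIB the share was 0.852% at day 0 (0.849 to 0.855) and 0.720% at day 7 (0.717 to 0.723). In shMLL1 it was 1.06% at day 0 (1.056 to 1.063) and 0.658% at day 7 (0.655 to 0.662). All 3 day 7 libraries were below all 3 day 0 libraries, and the gap between the days was smallest in shNFIB. Without the 4 most abundant genes the shares were 0.522%, 0.456% and 0.578% at day 0 and 0.326%, 0.345% and 0.328% at day 7, in the order shControl, shNFIB, shMLL1. The intervals cover counting error only, since 1 library stands for each condition, and in bulk RNA fewer cells of a kind and less RNA per cell cannot be told apart.

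**Figure D1:**
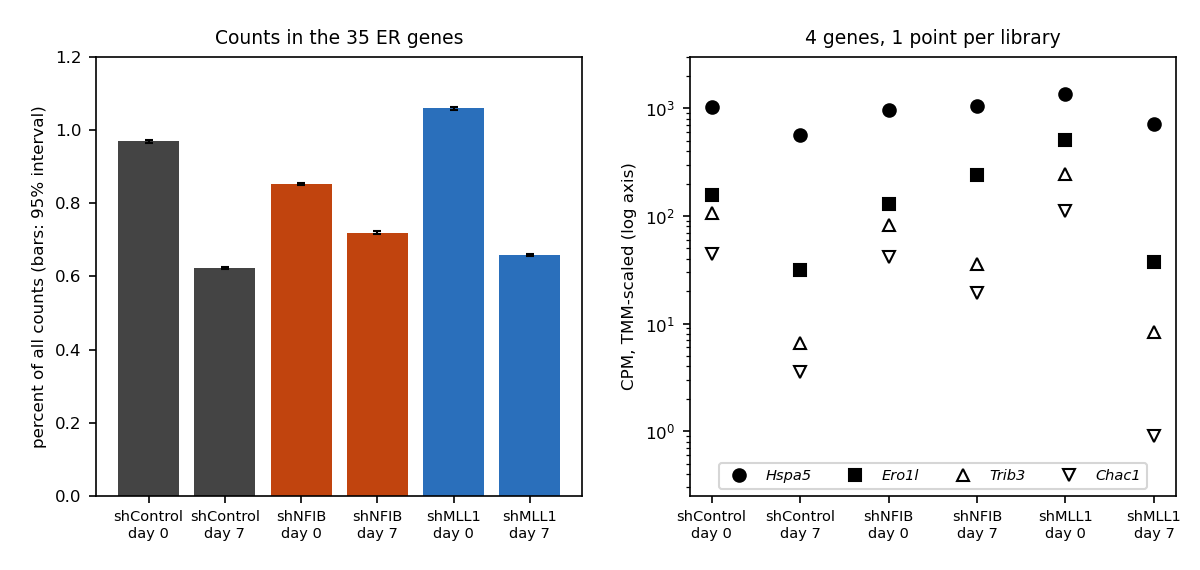
The left panel shows the percent of all counts that fell in the 35 ER genes, 1 bar per library with its 95% Wilson interval, from 0.623% in shControl at day 7 to 1.06% in shMLL1 at day 0. The right panel shows CPM on a log axis for Hspa5, Ero1l, Trib3 and Chac1, 1 point per library, all 4 highest in shMLL1 at day 0.

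The genes covered a wide range of levels. Per kilobase of annotated exon, Calr was the most abundant, at 388 to 517 RPKM over the 6 libraries, followed by Pdia3 at 197 to 358, Hspa5 at 134 to 321 and Hsp90b1 at 112 to 256. At the low end stood the sensors Atf6, with a mean of 6.17 RPKM, Ern1 with 4.73 and Eif2ak3 with 3.98. Derl3, another derlin, had 4 to 12 counts per library and was not tested. The other 34 genes passed the filter on low counts and had a mean of at least 24 CPM. Manf overlaps Rbm15b on its own strand, and Pdia3, Pdia6, Syvn1, Derl2, Dnajb11, Rcn3, Sec61a1 and Herpud1 overlap a protein-coding or antisense gene on the other strand. As the strand setting of the counting is not given in the sources used here, reads of these neighbours cannot be told apart from theirs.

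**Figure D2:**
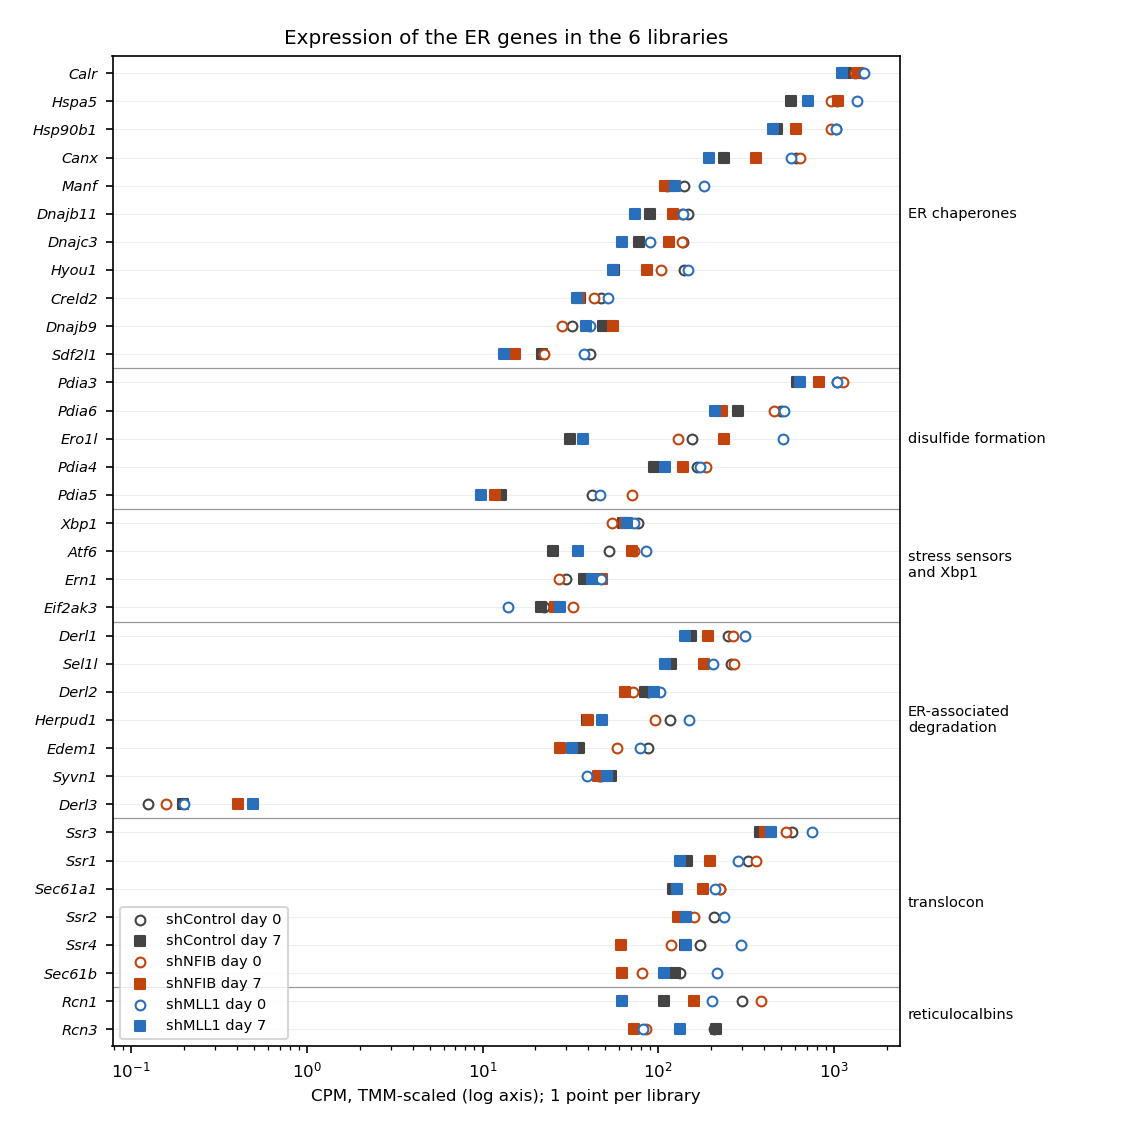
CPM of each of the 35 genes in each of the 6 libraries on a log axis, grouped by role, with open circles for day 0, filled squares for day 7 and 1 color per line. Day 7 squares lie left of the day 0 circles for most genes, with Rcn3, Ero1l and Derl3 among the exceptions.

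The first question is how the ER genes differ between day 7 and day 0 over the 3 lines. Of the 34 tested genes, 14 were lower at day 7 and 0 were higher by the quasi-likelihood test of edgeR, in which the line was a block, at an adjusted p under 0.05. Among all 15741 tested genes, 17.3% were lower and 17.2% were higher. No ER gene with a positive change had an unadjusted p under 0.05. Changes are given on the log2 scale with an SE, taken as the absolute change over the square root of its F statistic in the fit. With 3 libraries a side the fit leaves 2 residual degrees of freedom among samples. The test also moderates the variance of each gene across all tested genes. The median change of the 34 genes was -0.64, against -0.02 over all tested genes. Estimates were negative for 29 and positive for 5, and 7 more genes had adjusted p-values between 0.05 and 0.1. Of the called genes, 8 were more than 2-fold lower, against 10.8% of all tested genes that met both conditions. Among the 7660 tested genes at least as abundant as the least abundant of the 34, 23.0% were lower. In 19 of the 34 all day 7 libraries lay below all day 0 libraries, against 21.6% of all tested genes, and in 0 of them all day 7 libraries lay above, against 23.4%.

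**Figure D3:**
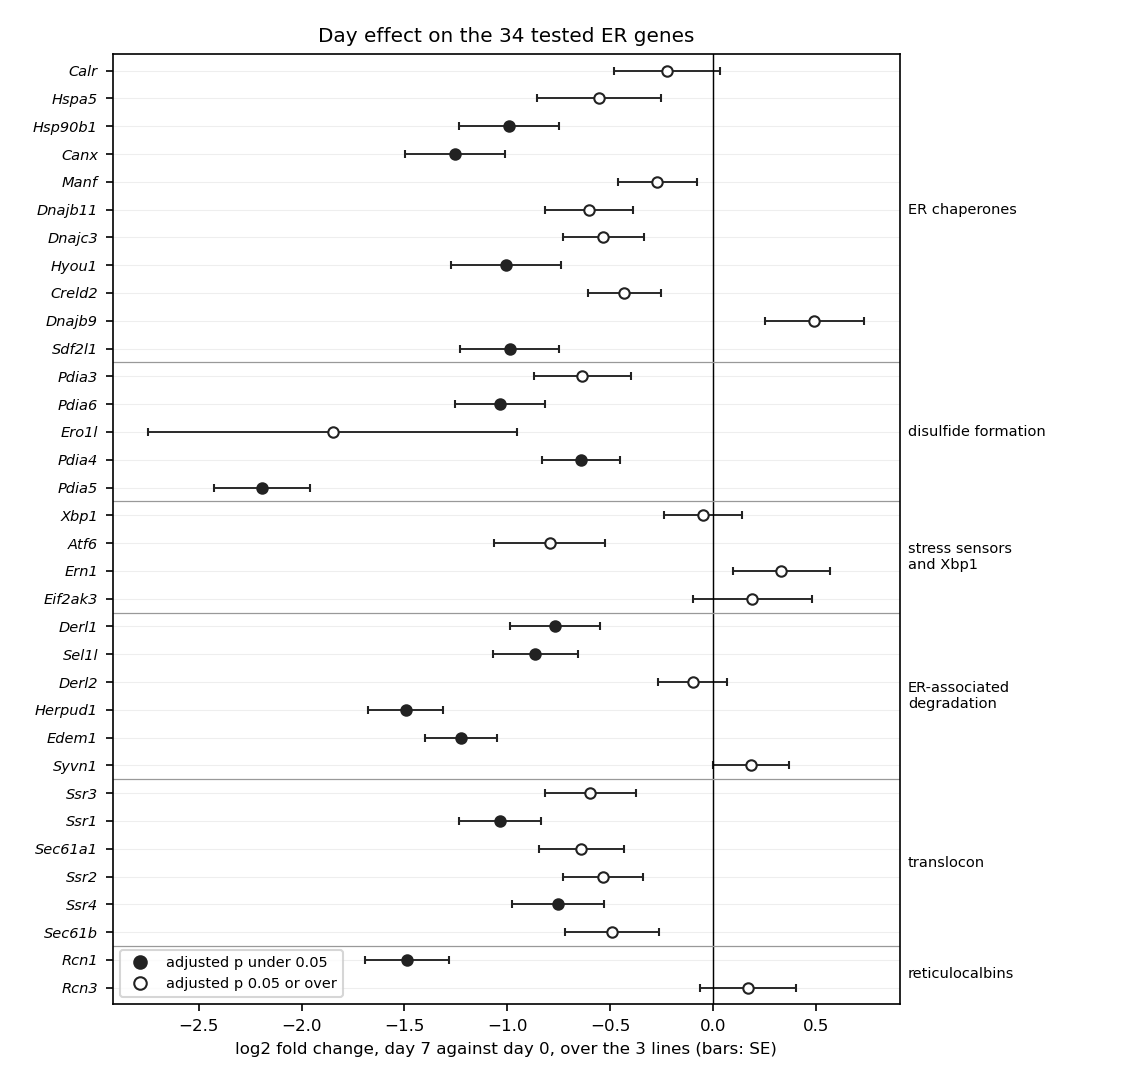
The log2 fold change of day 7 against day 0 over the 3 lines for the 34 tested genes, grouped by role. Bars are the SE derived from the edgeR F statistic, and filled points mark adjusted p under 0.05. All 14 filled points lie left of 0, from Pdia5 at -2.19 to Pdia4 at -0.64.

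Among the 11 ER chaperones and cochaperones, 4 fell and 0 rose, against 17.3% lower and 17.2% higher of all tested genes. The counts by role cover few genes and are given as a description. Canx encodes calnexin, the membrane-bound lectin that holds newly made glycoproteins. Its expression was 611, 645 and 570.1 CPM at day 0 and 236, 361 and 194 CPM at day 7 in shControl, shNFIB and shMLL1. The groups did not overlap, and the log2 change was -1.25 (SE 0.243, adjusted p = 0.0106, edgeR). Hsp90b1 encodes GRP94, the ER member of the HSP90 family, and its levels were 1028, 966 and 1033 CPM at day 0 and 474, 608 and 453 CPM at day 7. It fell by 0.99 (SE 0.244, adjusted p = 0.0227, edgeR), and its highest day 7 library was shNFIB. On the same strand its locus at chr10:86690209-86705509 overlaps Gm15344, and reads of overlapping genes could not be separated here.

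Hyou1, the exchange factor that reloads BiP with ATP, was at 141, 104 and 148 CPM at day 0 and at 56.4, 86.4 and 55.3 CPM at day 7. Sdf2l1, a partner of the ERdj3 cochaperone, was at 40.9, 22.4 and 37.7 CPM at day 0 and at 21.7, 15.4 and 13.2 CPM at day 7. Neither gene overlapped between days, although the day 0 shNFIB level of Sdf2l1 was close to the day 7 shControl level. Hyou1 fell by 1.005 (SE 0.268, adjusted p = 0.029) and Sdf2l1 by 0.99 (SE 0.241, adjusted p = 0.0221) in the edgeR fit.

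Hspa5 itself, the most studied marker of ER stress, was not called. Its levels were 1037, 958 and 1356 CPM at day 0 and 568, 1053 and 715 CPM at day 7, so that shNFIB at day 7 stood among the day 0 libraries. The log2 estimate was -0.56 (SE 0.302, adjusted p = 0.189, edgeR). Calr, the soluble lectin calreticulin, was at 1313 to 1488 CPM at day 0 and at 1172, 1371 and 1117 CPM at day 7, with an estimate of -0.23 (SE 0.257). Dnajb9 (ERdj4), a cochaperone that restrains IRE1, had the highest estimate of the 34 genes. It was at 32.5, 28.3 and 40.9 CPM at day 0 and at 48.6, 55.6 and 38.6 CPM at day 7, an estimate of 0.49 (SE 0.242, adjusted p = 0.153, edgeR). Its day 7 level was the higher one in shControl and shNFIB and the lower one in shMLL1. Dnajb11, Dnajc3, Creld2 and Manf had estimates of -0.60, -0.53, -0.43 and -0.27, and none of them was called. Of these, Dnajb11 (ERdj3) and Creld2 had day 7 levels below every day 0 level, while Dnajc3 (P58IPK) and Manf, a secreted ER stress factor, overlapped between days.

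In the disulfide group 3 of 5 genes fell and 0 rose, against 17.3% lower of all tested genes. Pdia5, a protein disulfide isomerase, showed the steepest change of all 34 genes. It was at 41.9, 70.8 and 46.6 CPM at day 0 and at 12.7, 11.7 and 9.75 CPM at day 7, in shControl, shNFIB and shMLL1. The 2 days were far apart in every line, and the gene fell by 2.19 (SE 0.235, adjusted p = 0.00156, edgeR), which is 4.57-fold. Pdia6 was at 501, 457 and 523 CPM at day 0 and at 285, 230.2 and 211 CPM at day 7, with a change of -1.04 (SE 0.219, adjusted p = 0.0141, edgeR). Pdia4 was at 166, 188 and 174 CPM at day 0 and at 94.1, 139 and 109.6 CPM at day 7, with a change of -0.64 (SE 0.189, adjusted p = 0.0393, edgeR). Both genes were clear of overlap between days. Pdia3 (ERp57), the isomerase that works with calnexin and calreticulin, was also without overlap but its estimate of -0.64 (SE 0.236) had an adjusted p of 0.0755 in edgeR.

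Ero1l (Ero1α), the oxidase that passes electrons from protein disulfide isomerase to oxygen, had the widest SE of the 34 genes. Its expression was 155 CPM in shControl, 129.9 in shNFIB and 513 in shMLL1 at day 0. At day 7 shControl had 31.4 CPM, shNFIB 238 and shMLL1 37.4. The estimate of -1.85 had an SE of 0.895, and the adjusted p was 0.147 in edgeR. The library of shNFIB at day 7 lay above 2 of the day 0 libraries. With no filter on low counts the same estimate had an adjusted p of 0.00629 in edgeR. Without the shNFIB line, the only one in which Ero1l was higher at day 7, the same fit gave -3.04 with an adjusted p of 0.000952. It was not called without shControl (adjusted p = 0.414, edgeR), without shMLL1 (0.440) or with no line block (0.260). Library size alone (adjusted p = 0.162, edgeR), DESeq2 size factors (0.144) and the DESeq2 test (0.212) gave no call either.

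None of the 3 sensors nor Xbp1 was called in this fit. Atf6, the sensor that is cut in the Golgi to release a transcription factor, was at 52.4, 73.2 and 84.9 CPM at day 0 and at 25.2, 71.1 and 34.96 CPM at day 7. Its estimate was -0.80 (SE 0.271, adjusted p = 0.0601, edgeR), and again it was shNFIB whose day 7 library stood among those of day 0. Atf6 was called lower with no filter on low counts (adjusted p = 0.0171, edgeR), in DESeq2 (adjusted p = 0.0357) and without the shNFIB line (-1.17, adjusted p = 0.0118, edgeR). It was not called without shControl (adjusted p = 0.259, edgeR), without shMLL1 (0.154) or with no line block (0.226). Library size alone (adjusted p = 0.0922, edgeR) and DESeq2 size factors (0.0578) gave no call either. Ern1 (IRE1α), the nuclease that splices Xbp1, was at 29.8, 27.2 and 47.2 CPM at day 0 and at 38.1, 47.8 and 41.8 CPM at day 7, with an estimate of 0.33 (SE 0.234). Eif2ak3 (PERK) ranged from 13.9 to 32.7 CPM, both extremes at day 0, and its estimate was 0.19 (SE 0.288). Xbp1 mRNA, spliced and unspliced together, lay between 54.9 and 77.0 CPM in the 6 libraries, with an estimate of -0.05 (SE 0.188). Gene counts cannot tell the spliced form of Xbp1 from the unspliced one, nor cleaved ATF6 from full length.

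In ER-associated degradation, which carries misfolded proteins back to the cytosol, 4 of 6 tested genes fell and 0 rose. Over all tested genes 17.3% were lower. Herpud1, a stress-induced scaffold of the degradation complex, was at 116, 95.7 and 149.6 CPM at day 0 and at 39.1, 39.6 and 48.0 CPM at day 7. Edem1, a mannosidase-like protein that picks out misfolded glycoproteins, was at 87.5, 58.4 and 78.3 CPM at day 0 and at 35.2, 27.5 and 32.4 CPM at day 7. The days were clearly apart for both, with changes of -1.49 for Herpud1 (SE 0.183, adjusted p = 0.00235) and -1.22 for Edem1 (SE 0.176, adjusted p = 0.00417) in edgeR.

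Sel1l and Syvn1 encode the adaptor and the ubiquitin ligase of the same HRD1 complex. Sel1l was at 259, 269 and 205 CPM at day 0 and at 119, 182 and 109 CPM at day 7, a change of -0.86 (SE 0.207, adjusted p = 0.0208, edgeR). Syvn1 was at 39.2 to 47.3 CPM at day 0 and at 45.2 to 54.1 CPM at day 7, an estimate of 0.18 (SE 0.183). The adaptor therefore fell while the estimate of the ligase was on the other side of 0, though no test compared the 2 genes. Derl1, a channel component, was at 249.6, 267 and 313 CPM at day 0 and at 154, 192 and 142 CPM at day 7, a change of -0.77 (SE 0.218, adjusted p = 0.0346, edgeR). Its paralog Derl2 lay between 65.1 and 101.8 CPM in the 6 libraries, with an estimate of -0.10 (SE 0.169).

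In the translocon group 2 of 6 genes fell and 0 rose, against 17.3% lower of all tested genes. Ssr1, the alpha subunit of the translocon-associated protein complex, was at 324, 359.9 and 284 CPM at day 0 and at 146, 197 and 134 CPM at day 7. It fell by 1.04 (SE 0.198) and the edgeR fit gave an adjusted p of 0.0102. Ssr4, the delta subunit, was at 173, 118 and 296 CPM at day 0 and at 143, 61.6 and 143 CPM at day 7. Its change was -0.75 (SE 0.225, adjusted p = 0.0402, edgeR), and its levels overlapped between days since shNFIB was low at both. Sec61a1, the pore of the channel, had an estimate of -0.64 (SE 0.206, adjusted p = 0.0509, edgeR), with no overlap between days. Ssr3, Ssr2 and Sec61b had estimates of -0.60, -0.54 and -0.49 and were not called.

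The last 2 genes are reticulocalbins, calcium-binding proteins of the ER lumen. Rcn1 was at 299.5, 386 and 203 CPM at day 0 and at 107.6, 159 and 62.1 CPM at day 7, and it fell by 1.49 (SE 0.203, adjusted p = 0.00342, edgeR). Rcn3 was at 209, 85.3 and 81.6 CPM at day 0 and at 214, 73.0 and 133 CPM at day 7. The estimate for Rcn3 was 0.17 (SE 0.233), and it was highest in shControl on both days.

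Called and uncalled genes were found both with and without ERSE in the promoter. Of the 8 tested genes with ERSE, 3 fell and their median change was -0.55. Of the 19 whose promoter had no ERSE, 8 fell with a median of -0.64. These 19 include Herpud1, which was called, and Dnajb11, which was not, and both hold ERSE-II. Of the 7 genes with no matched promoter, 3 fell, with a median of -0.77. Hsp90b1, with 2 sites, fell, as did Canx and Pdia6 with 1 site each, while Hspa5, Calr, Creld2, Dnajc3 and Syvn1, also with 1 site each, were not called. These counts are a description over few genes, where 17.3% of all tested genes were lower.

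Which genes were called depended on the lines that entered. Pdia5, Herpud1, Edem1 and Rcn1 were called in all 8 alternatives of normalization, filter, tool, block and left-out line. When the shControl line was left out, with 4 libraries in the fit, only these 4 remained called. The 10 genes that lost the call then kept estimates between -1.24 (Canx) and -0.60 (Pdia4), among them Pdia6 at -1.19, Ssr4 at -1.04 and Ssr1 at -1.02, with adjusted p-values from 0.0801 to 0.263 in edgeR. When shMLL1 was left out 10 genes were lower and Dnajb9 was higher at 0.74 (adjusted p = 0.0403, edgeR). Among genes not called, Sec61a1, Pdia3 and Ssr3 were lower in DESeq2 with adjusted p-values of 0.0224, 0.0122 and 0.0243. Pdia4 and Ssr4 each kept the call in 3 of the 8 alternatives and Derl1 in 4. The share of all tested genes called lower, 17.3%, is given for the main fit only. The counts under the alternatives therefore cannot be set against a share of their own.

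The second question is whether the change to day 7 was alike in each line. With 1 library a side no test is possible within a line, and values are log2 fold changes between 2 libraries, counted as large beyond 2-fold. In shControl 11 of the 34 genes were more than 2-fold lower at day 7 and 0 more than 2-fold higher, against 13.8% and 15.8% of all genes with at least 10 counts. In shNFIB 4 were lower, namely Pdia5, Herpud1, Edem1 and Rcn1, and 0 higher, against 11.6% and 11.4%. In shMLL1 15 were lower and 0 higher, against 17.4% and 19.6%. The 34 genes had medians of -0.78 (shControl), -0.33 (shNFIB) and -0.91 (shMLL1), against medians over all genes of -0.09, -0.06 and -0.02. The change was negative in every one of the 3 lines for 25 of the 34 genes, against 34.3% of all tested genes. It was least negative or most positive in shNFIB for 26 of the 34, against 30.6%.

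The shNFIB line stood apart most at Ero1l. Its level was higher at day 7 in shNFIB, by 0.87 on the log2 scale (95% counting interval 0.82 to 0.93), while the day 7 value differed by -2.31 (-2.41 to -2.21) in shControl and by -3.78 (-3.88 to -3.68) in shMLL1. For Hspa5 the difference was 0.14 (0.11 to 0.16) in shNFIB, -0.87 in shControl and -0.92 in shMLL1. For Hyou1 it was -0.27, -1.32 and -1.42 in the same order, and for Atf6 it was -0.04, -1.06 and -1.28. In shNFIB the values of these 4 genes lay between -0.27 and 0.87, and in the other lines between -3.78 and -0.87. They are examples from the 26 of 34 genes whose change was least negative or most positive in shNFIB. Others went the other way, such as Ssr4, at -0.94 in shNFIB and -0.28 in shControl, and Pdia6, at -0.99 and -0.81. Whether the lines differ beyond the variation between cultures was not tested, as no line has a second library at either day.

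The 4 genes called under every alternative were more than 2-fold lower in each line. Herpud1 was at -1.57 in shControl, -1.27 in shNFIB and -1.64 in shMLL1, Edem1 at -1.31, -1.09 and -1.27, and Rcn1 at -1.48, -1.28 and -1.71. Pdia5 was lowest relative to day 0 in shNFIB, at -1.72, -2.60 and -2.26. Eif2ak3 was near 0 in shControl (-0.06) and at -0.34 in shNFIB, whereas it was at 0.98 in shMLL1.

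The last question is how each knockdown line differs from shControl. Over both days, with 2 libraries a side and day as a covariate, 0 of the 34 genes were called in shNFIB, against 0.254% of all tested genes, and 0 in shMLL1, against 0.0318%. These edgeR tests called 40 and 5 genes in all. At an unadjusted p under 0.05 in edgeR there were 4 of the 34 genes in shNFIB (Rcn3, Ssr4, Sec61b and Atf6), against 1956 of all 15741 tested genes. In shMLL1 there were 2 of the 34 (Rcn3 and Rcn1), against 1442 of the 15741. Neither count of the 34 is a larger share than that over all tested genes. Both comparisons use the same shControl libraries. The median differences were 0.12 in shNFIB and 0.01 in shMLL1, against 0.05 and -0.02 over all tested genes.

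Rcn3 showed the largest negative difference. It was lower than shControl in both libraries of each knockdown line, with -1.41 in shNFIB (SE 0.288, adjusted p = 0.147, edgeR) and -0.999 in shMLL1 (SE 0.287, adjusted p = 0.325, edgeR). For shNFIB the adjusted p was 0.00415 with no filter on low counts, 0.000658 in DESeq2 and 0.0143 with only the 4 libraries compared. With DESeq2 size factors (adjusted p = 0.127, edgeR) and library size alone (0.138) Rcn3 was not called, as in the main fit. Ssr4 and Sec61b differed by -0.90 (SE 0.275) and -0.88 (SE 0.279) in shNFIB and by 0.38 and 0.25 in shMLL1. Atf6 was 1.03 higher in shNFIB (SE 0.331, adjusted p = 0.293, edgeR) and 0.60 higher in shMLL1 (SE 0.327). The estimates of Ero1l, 1.88 in shNFIB and 1.27 in shMLL1, had SE values of 1.003 and 0.925, since the difference came from different days in the 2 lines.

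Library by library at day 0, Rcn3 was the only one of the 34 genes more than 2-fold lower in shNFIB than in shControl, and 0 were more than 2-fold higher, against 3.60% and 4.61% of all genes. In shMLL1 Ero1l was more than 2-fold higher and Rcn3 more than 2-fold lower, against 6.36% and 6.87%. At day 7, Ero1l (2.92, 95% counting interval 2.82 to 3.02) and Atf6 (1.498, 1.38 to 1.62) were more than 2-fold higher in shNFIB, against 6.14%. Sec61b (-1.004), Ssr4 (-1.21) and Rcn3 (-1.55) were more than 2-fold lower there, against 8.08%. In shMLL1 at day 7, 0 of the genes were beyond 2-fold in either direction, against 5.18% higher and 3.88% lower. The medians over the 34 genes were -0.12 in shNFIB and 0.06 in shMLL1 at day 0, and 0.24 and -0.06 at day 7. Over all genes they were 0.09 and -0.05 at day 0, and 0.02 and -0.03 at day 7.

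**Figure D4:**
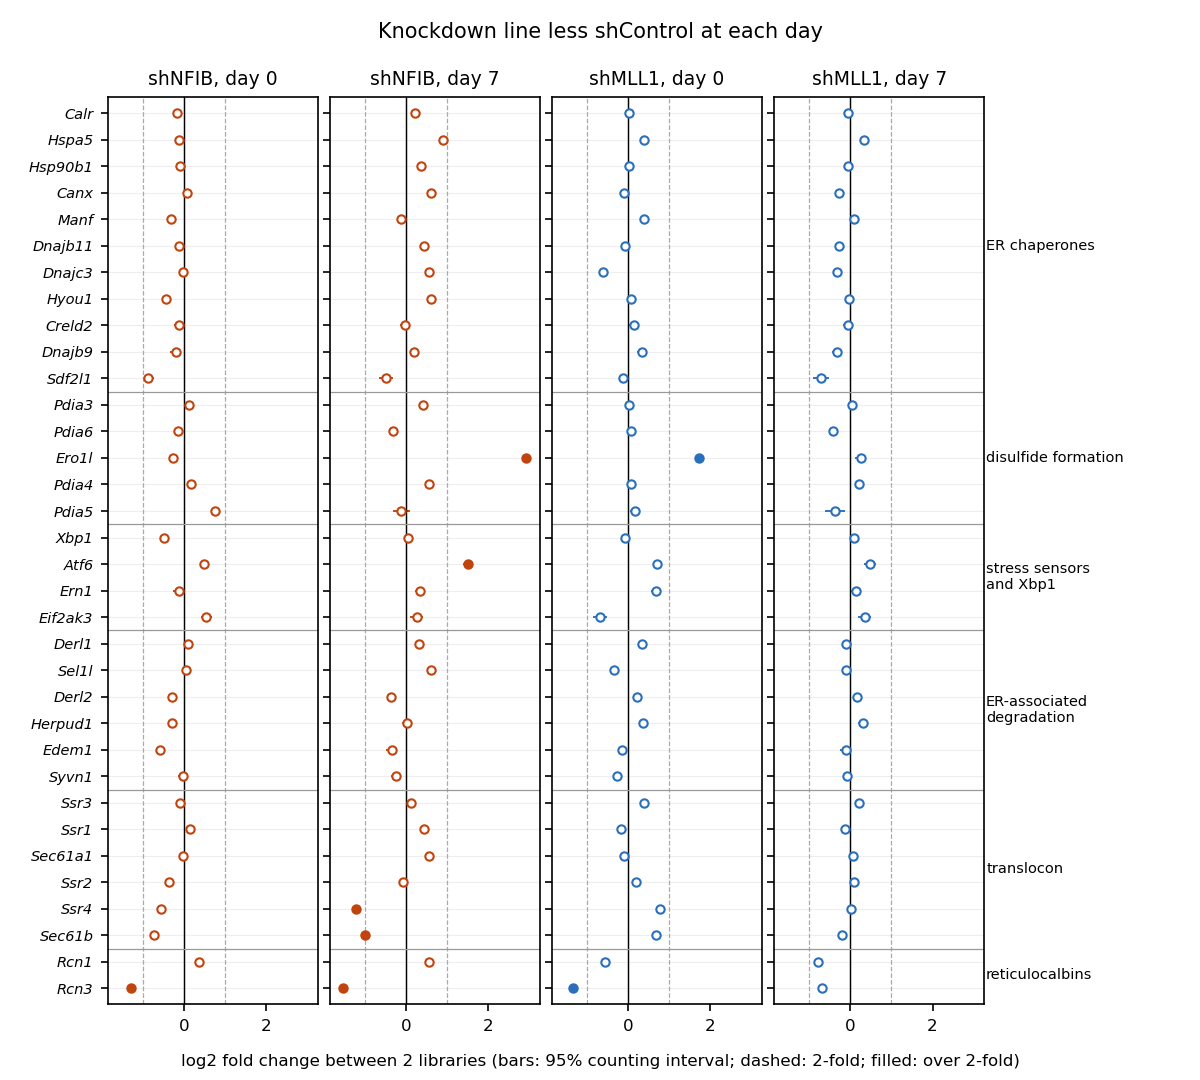
Each knockdown line set against shControl on the log2 scale, day 0 and day 7 in separate panels, for the 34 tested genes, with 95% counting intervals as bars, dashed lines at 2-fold and filled points beyond it. Ero1l is filled in shNFIB at day 7 and in shMLL1 at day 0, and Rcn3 is filled in 3 of the 4 panels.

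Among the chaperones the day 7 difference of shNFIB from shControl was 0.89 for Hspa5 (0.86 to 0.92), 0.62 for Hyou1, 0.61 for Canx, 0.56 for Dnajc3, 0.44 for Dnajb11, 0.36 for Hsp90b1, 0.23 for Calr and 0.19 for Dnajb9. It was -0.02 for Creld2, -0.11 for Manf and -0.49 for Sdf2l1. At day 0 the 11 values lay between -0.87 for Sdf2l1 and 0.08 for Canx (0.05 to 0.11), and Canx was the only positive one. Neither day has a replicate.

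These differences between libraries moved with transcript length over all genes. In shNFIB against shControl at day 7 the median was -0.16 for the 2250 genes with transcripts under 1000 bases and 0.36 for the 1201 genes of 5000 bases and over. At day 0 these medians were -0.07 and 0.26. Sec61b, Ssr4 and Rcn3 have short transcripts and Atf6 a long one. Relative to genes of like length the day 7 values were -0.84 for Sec61b, -1.05 for Ssr4, -1.38 for Rcn3, 1.13 for Atf6, 0.66 for Hspa5 and 2.83 for Ero1l. Dnajc3 was then at 0.20, Hyou1 at 0.39, Canx at 0.39, Dnajb11 at 0.43 and Hsp90b1 at 0.35. In shMLL1 against shControl the medians of the same 2 length classes were 0.07 and -0.33 at day 0 and -0.15 and 0.15 at day 7. Between the days they were 0.00 and -0.35 in shControl, -0.03 and -0.19 in shNFIB and -0.24 and 0.20 in shMLL1. Relative to genes of like length the medians of the 34 genes between the days were -0.61 for shControl, -0.26 for shNFIB and -0.79 for shMLL1. The part of transcript length in these differences was not tested. For the day effect over the lines the medians by length lay between -0.12 and -0.05.

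Other genes of the same pathways were counted from lists by role. Of 120 tested genes in 9 further ER lists, 30 fell and 1 rose with day by the same edgeR test, and their median change was -0.42. Of all tested genes 17.3% were lower, and of those at least as abundant as the least abundant of the 34 genes 23.0%, so the counts of these lists are given as a description. In oligosaccharyltransferase, which attaches N-glycans, 7 of 11 fell and 0 rose, led by Rpn2 at -1.48 (SE 0.215) and Krtcap2 at -1.21 (SE 0.223). Among other oxidoreductases 6 of 15 fell and 0 rose, with Txndc5 at -1.21 and Tmx4 at -1.07. Among glucosidases and the lectin cycle 4 of 12 fell and 0 rose, with Uggt1, the folding sensor that reglucosylates, at -0.82 and the cargo receptor Lman1 at -0.77. Among other cochaperones and calcium binders 3 of 14 fell and 0 rose, with Nucb2 at -1.39 and Calu at -1.30.

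In signal recognition, translocation and signal peptidase 3 of 18 fell, with Tram2 and Tram1 both at -1.02, and 1 rose. The gene that rose was Sec61a2, a second pore gene, which is named here after its value was seen. Of the COPII coat, which carries cargo out of the ER, 2 of 15 fell and 0 rose, with Tfg at -0.92 and Sec23b at -0.73. Of other degradation genes 1 of 18 fell and 0 rose, Ube2g2 at -0.61. Of sensor-processing proteases and related bZIP factors 0 of 8 were called by edgeR. Chaperones outside the ER were counted beside them. Of 22 tested cytosolic and mitochondrial chaperones 7 fell and 0 rose, against 17.3% lower of all tested genes, with a median of -0.35. Stip1 (-1.41) and Hsp90aa1 (-1.13) led the cytosolic list, in which 4 of 13 fell, and Hspa9 (-1.78) and Hspd1 (-1.20) the mitochondrial list, in which 3 of 9 fell. Lower expression at day 7 was thus counted in chaperone lists of other compartments as well, and no test compared the lists.

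In the PERK arm 4 of 9 genes fell and 0 rose, against 17.3% lower of all tested genes, and the median was -0.85. Trib3, a pseudokinase target of ATF4, was at 106, 82.1 and 248 CPM at day 0 and at 6.56, 35.7 and 8.36 CPM at day 7. Chac1, a glutathione-degrading enzyme, was at 44.1, 41.4 and 112.0 CPM at day 0 and at 3.54, 19.1 and 0.902 CPM at day 7. The change was -3.43 for Trib3 (SE 0.728, adjusted p = 0.0143) and -3.68 for Chac1 (SE 1.06, adjusted p = 0.0359) in edgeR. Like Ero1l, both were highest in shMLL1 among the day 0 libraries and highest in shNFIB among the day 7 libraries. Unlike Ero1l, both were lower at day 7 than at day 0 in shNFIB too. The rest of the list, added after its values were seen, went either way in shNFIB from day 0 to day 7. Ppp1r15a went from 23.8 to 83.6 CPM and Atf3 from 4.28 to 14.9 CPM. Ddit3 went from 67.8 to 76.2 CPM and Nck1 from 67.5 to 90.6 CPM. In the other direction, Ppp1r15b went from 250 to 180 CPM and Eif2s1 from 165 to 134 CPM. Atf4, added after its values were seen, was at 499.98, 471 and 956 CPM at day 0 and at 237, 389.8 and 159 CPM at day 7. The median of this list in shNFIB against shControl was -0.17 at day 0 and 0.90 at day 7, and in shMLL1 against shControl it was 1.22 at day 0 and -0.19 at day 7.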

How the data were processed

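RNA-seq libraries were made from total RNA with a TruSeq kit, 1 per line and day. Per the labels the authors used Trimmomatic 0.39, HISAT2 2.2.1, SAMtools 1.12 and HTSeq 0.11.1 with GRCm38 (mm10), kept well-mapped reads, removed PCR duplicates, and the values they deposited are raw counts per Ensembl gene. The annotation release and strand setting of the counting are not given in the sources used here. Of the 55401 genes, 55141 were placed with GENCODE M21, which also gave gene overlaps.

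The 15741 genes passed by filterByExpr on the day groups were fitted in edgeR 4.0.16 (R 4.3.3) with TMM factors, a term for line and a term for day, and Benjamini-Hochberg adjustment over all of them. The study names edgeR, TMM, a 5% false discovery rate and a fold over 2. The line pairs the days, because the same cells carry it: deviations of the 2 libraries from their day means correlated at 0.389 in shControl, 0.423 in shNFIB and 0.256 in shMLL1 over 15741 genes. No condition has a second culture, so p-values rest on the spread of the lines around the additive fit. The variance of each gene was moderated across all tested genes. Library pairs were compared as TMM-scaled CPM with a prior count of 0.125 and Clopper-Pearson counting intervals. Python 3.11.15 with pandas 2.3.3, scipy 1.17.1 and matplotlib 3.10.9 did the rest.

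The 35 genes, the other lists and the tests were chosen with earlier results of these data known. Named are the 35 genes, the hairpin targets and, of each other list, the 2 genes with the largest change among those called for day with at least 10 counts in every library. Sec61a2 and the PERK arm genes other than Trib3 and Chac1 fall outside this rule and were named after their values were seen. Alternatives were DESeq2 1.42.0 and its size factors, library size alone, no filter, no block, left-out lines, a prior count of 2 and thinning. Centring by transcript length was added after seeing the data. ChIP-seq was not used here.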

Additional observations from a re-analysis of the deposited data

Results flagged for a closer look

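For 7 genes the change from day 0 to day 7 went in opposite directions in 2 lines, each beyond its counting interval. The share of all genes that did so is not given here, so 7 cannot be set against it. The gap was 4.65 on the log2 scale for Ero1l, 1.06 for Hspa5, 0.986 for Ern1 and 0.475 for Calr, each taken as shNFIB less shMLL1. It was 1.325 for Eif2ak3 and 0.925 for Rcn3, each taken as shMLL1 less shNFIB, and 0.530 for Xbp1, taken as shNFIB less shControl. The difference was not tested for any of the 7 genes, because each line has 1 library per day and a counting interval does not cover the variation between cultures.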

How the results depend on the processing

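Day effect: 8 genes were called lower with a fold over 2 added, and with each line left out in turn 4 to 14 were lower and 0 to 1 higher, the 4 without shControl. The other alternatives gave 11 (library size alone, no line block) to 18 (DESeq2), against 14. Shares over all genes are not given for these alternatives. Library size alone moved the median of all genes by 0.13, and the median of the 34 genes was then -0.50. It turned Xbp1 to 0.085 and Derl2 to 0.034. With each line left out, Xbp1 ranged from -0.20 to 0.020, Eif2ak3 from -0.24 to 0.46 and Rcn3 from -0.13 to 0.37, the first highest without shControl and the others lowest without shMLL1. None of these was called. In shNFIB against shControl, 1 gene (Rcn3) was called lower with no filter, in DESeq2 and with only the 4 libraries compared. It was not called with DESeq2 size factors or library size alone. Between days in shNFIB, 1 gene (Dnajb9) was over 2-fold higher with library size alone, with thinning and with length centring. In shMLL1 1 gene (Eif2ak3) was so with library size alone. Genes over 2-fold lower at day 7 in shMLL1 numbered 15, against 10 with library size alone and 13 with length centring. A prior count of 2 or thinning gave 14 there. The counts in the same order were 11, 10 and 8 in shControl and 4, 3 and 3 in shNFIB, for main, library size alone and length centring. In shMLL1 against shControl at day 0, 2 genes (Ero1l, Atf6) were over 2-fold higher with length centring. The cause was not tested. A left-out day for the line effects was not run, since it leaves 1 library a side. Depth limits Derl3 alone, at 4 to 12 counts.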
